A study of Mus musculus with 8 samples.

Results

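Integrins and cadherins, the main receptor families by which cells hold matrix and each other, were described across descendants of hypertrophic chondrocytes with stabilised, deleted or intact β-catenin. The members were all rows whose symbol is a numbered or lettered integrin α or β gene or a numbered cadherin gene, without Cdh2 and Cdh11. They came to 47 rows of 48490 genes, 27 of them integrins and 20 cadherins, under 46 symbols because Itgam is listed under a pair of gene IDs. An integrin is a dimer of an α and a β subunit that spans the membrane, with the α subunit largely setting which matrix protein is bound and the β tail recruiting talin, kindlin and the actin cytoskeleton. Classical cadherins join neighbouring cells through calcium-dependent contacts, and their tails bind β-catenin, so the protein altered in these mice serves both Wnt signalling and cell junctions. In the growth plate and bone, integrins anchor chondrocytes and osteoblasts to collagens, fibronectin and the acidic matrix proteins of mineralising tissue.

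All mice carried Col10a1Cre, a recombinase driven by a gene of hypertrophic chondrocytes, and the Rosa26-Tdtomato reporter, which leaves cells that have expressed the recombinase red. GoF (gain of function) mice carried Ctnnb1-exon3 Δ/+, which removes from 1 allele the exon that marks β-catenin for degradation, with 2 libraries. LoF (loss of function) mice carried Ctnnb1 Δ/Δ, with 4 libraries, and WT mice carried the recombinase and reporter with no altered Ctnnb1 allele, with 2 libraries. Each library pooled 70 red cells picked from the proximal tibia on postnatal day 5. Whether the libraries of a group came from separate animals is not stated in the labels, so p-values reflect spread among libraries that may be largely technical. In GoF and in WT that spread may be technical only. The sex transcripts given below differ within LoF, so the LoF libraries did not all come from a single animal.

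Values are FPKM, read fragments corrected for transcript length and sequencing yield, as deposited. A gene was tested where it reached an FPKM of 1 in at least 2 of the 8 libraries, and was called at a Benjamini-Hochberg adjusted p under 0.05 from limma on log2(FPKM + 1) over all 12888 genes tested. FPKM summed to 293194 to 382101 per library and 12587 to 13944 genes were above 0. Read counts are unknown. GoF 1 and 2 and LoF 2 and 3 held Y-linked transcripts, while LoF 1 and 4 and WT 1 and 2 held Xist, so sex and genotype cannot be told apart between GoF and WT. Ctnnb1, the targeted gene, stood at 72.0 and 86.7 FPKM in GoF, at 81.0, 67.3, 70.4 and 81.1 in LoF, and at 137 and 146 in WT. Neither mutant passed the test against WT for it (adjusted p = 0.176 for GoF and 0.110 for LoF). The gene-level values do not resolve exon 3. Of 10 markers of hypertrophic chondrocytes and osteoblasts, 10 were tested and their summed FPKM was 15260 to 16770 in GoF, 896.1 to 1899 in LoF and 11020 to 11310 in WT. Col1a1 and Ibsp made up most of that sum in every library. Mean Runx2 did not share its order, at 26.7 FPKM in GoF, 26.2 in LoF and 51.0 in WT. Col10a1, the collagen whose promoter drove the recombinase, was at 189.6 and 177 FPKM in GoF, at 9.61, 114, 59.4 and 69.4 in LoF, and at 6.24 and 20.5 in WT. Ihh was at 1.46 and 3.91 in GoF and listed at 0 in every LoF and WT library.

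Of the 47 member rows, 16 were tested, 12 integrins and 4 cadherins. Another 15 rows were listed at 0 in all 8 libraries and 16 were above 0 somewhere but under the filter. Most of the signal lay in few subunits. Itgb1, Itgav, Itgb5 and Itga1 were the members with a group mean of at least 10 FPKM. The heatmap of member levels shows every member row above 0 in each library.

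**Figure D1:**
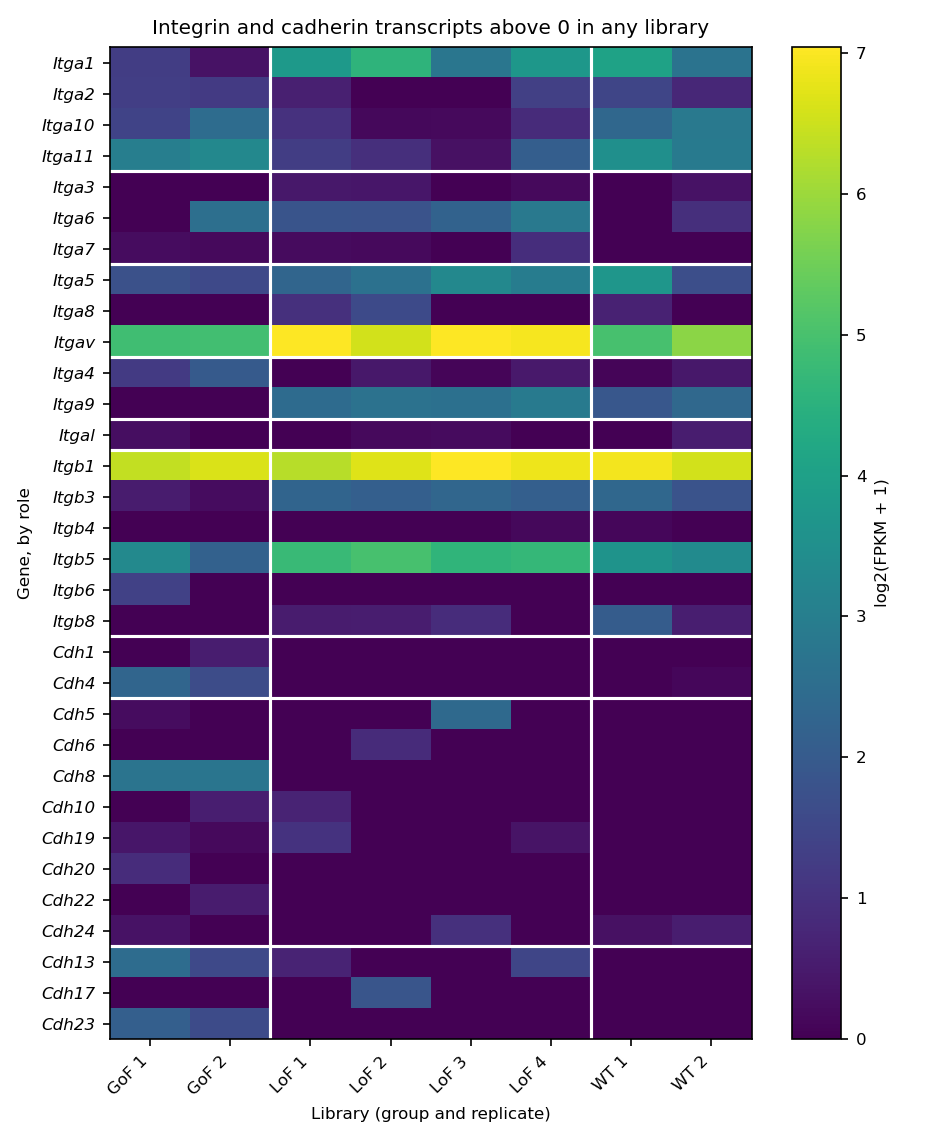
Heatmap of log2(FPKM + 1) for each integrin and cadherin row above 0 in at least 1 library (rows), with GoF, LoF and WT libraries from left to right (columns). Itgb1 and Itgav are the brightest rows in every library, and Cdh8, Cdh4 and Cdh23 are bright in GoF alone among the 3 groups.

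The upstream sequences of members whose calls carry the results are shown here because the mice differ in a co-activator of TCF/LEF factors at promoters. They are the 250 bases before the annotated start of 3 integrins lower in GoF than in LoF and of 2 cadherins higher in GoF, from RefSeq on GRCm38.p6 (mm10), read 5′ to 3′ on the strand of the gene. Capitals mark matches on either strand to a TCF/LEF core (CTTTGA or TCAAAG) or an SP1 GC box (GGGCGG or CCGCCC). The Itgav stretch is chr2:83724147-83724396 on the plus strand, that of Itgb5 is chr16:33829415-33829664 on the plus strand, and that of Itga1 is chr13:115101965-115102214 on the minus strand. The Cdh8 stretch is chr8:99416472-99416721 and the Cdh23 stretch is chr10:60696491-60696740, both on the minus strand.
Itgav: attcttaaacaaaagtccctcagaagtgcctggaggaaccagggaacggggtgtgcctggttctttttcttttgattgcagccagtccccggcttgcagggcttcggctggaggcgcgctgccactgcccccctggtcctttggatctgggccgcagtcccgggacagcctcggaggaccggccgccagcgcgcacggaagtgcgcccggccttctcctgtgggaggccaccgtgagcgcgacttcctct
Itgb5: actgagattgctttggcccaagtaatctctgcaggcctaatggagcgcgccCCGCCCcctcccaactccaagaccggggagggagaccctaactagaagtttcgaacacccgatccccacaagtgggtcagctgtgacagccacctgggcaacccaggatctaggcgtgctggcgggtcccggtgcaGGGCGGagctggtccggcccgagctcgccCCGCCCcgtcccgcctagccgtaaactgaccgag
Itga1: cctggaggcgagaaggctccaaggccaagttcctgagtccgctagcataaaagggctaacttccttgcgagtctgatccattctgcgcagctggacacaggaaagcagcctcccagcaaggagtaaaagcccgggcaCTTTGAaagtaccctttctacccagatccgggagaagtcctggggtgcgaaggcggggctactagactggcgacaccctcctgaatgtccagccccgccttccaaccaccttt
Cdh8: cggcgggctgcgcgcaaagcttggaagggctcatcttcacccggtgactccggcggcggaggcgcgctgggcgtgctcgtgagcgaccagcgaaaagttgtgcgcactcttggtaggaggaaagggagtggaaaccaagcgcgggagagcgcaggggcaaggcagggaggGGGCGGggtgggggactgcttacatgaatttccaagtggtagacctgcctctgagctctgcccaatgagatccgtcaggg
Cdh23: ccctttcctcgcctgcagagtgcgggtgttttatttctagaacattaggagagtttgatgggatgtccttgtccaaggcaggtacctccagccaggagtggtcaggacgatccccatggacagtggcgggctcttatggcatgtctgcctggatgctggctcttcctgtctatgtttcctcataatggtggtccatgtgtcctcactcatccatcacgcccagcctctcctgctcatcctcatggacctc

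The TCF/LEF core stood 113 bases before the start of Itga1 and was not found in the other 4 stretches. Across 32851 promoter windows of this length, 13.8% held it, against 4 of 34 windows that matched 30 member symbols. Tested members had 12 windows, with none for Itgb3, Cdh4, Itga6 and Cdh13, which were therefore not searched. Among the 12 it was in the windows of Itga1 and Itga10. The SP1 box, in 32.7% of all windows, stood 80 bases before the start of Cdh8 and 199, 63 and 34 bases before that of Itgb5. A RUNX core (TGTGGT or ACCACA), in 14% of all windows, was found among tested members in that of Itga4. GC content was 64.4%, 65.2%, 57.6%, 64.4% and 54.4% for Itgav, Itgb5, Itga1, Cdh8 and Cdh23, beside a median of 52.4% for all windows. These matches describe the letters of the windows only.

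Against LoF, GoF cells had lower levels of the αv subunit, of its partners β3 and β5, and of the α1 and α9 subunits, and higher levels of the α11 subunit and of Cdh8, Cdh4 and Cdh23. The β1 subunit, the most abundant partner of αv, did not pass. In all, 4 members were higher in GoF, against 5.97% of all genes tested, 5 were lower, against 5.68%, and 7 did not pass. Cdh8, Cdh4 and Cdh23 reached the filter through the GoF libraries alone, so that they were tested at all depended on being high there, and the same holds for Itga4, which was not called. The libraries of GoF and LoF did not overlap for 13 of the 16 tested members, against 33.5% of all genes tested. Those 13 include Cdh8, Cdh4, Cdh23 and Itga4, whose direction the filter fixed. They also include Cdh13, which outside GoF reached an FPKM of 1 in LoF 4 alone (1.75 FPKM). Nothing is read from that count. The median log2 fold change of the 12 tested integrins was -1.02, with -0.17 over all genes. In such pooled samples, fewer cells of a type and less RNA per cell cannot be told apart. Of the 10 chondrocyte and osteoblast markers, 8 were higher in GoF than in LoF and 0 were lower, and the part of that difference in the members' values was not tested.

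**Figure D2:**
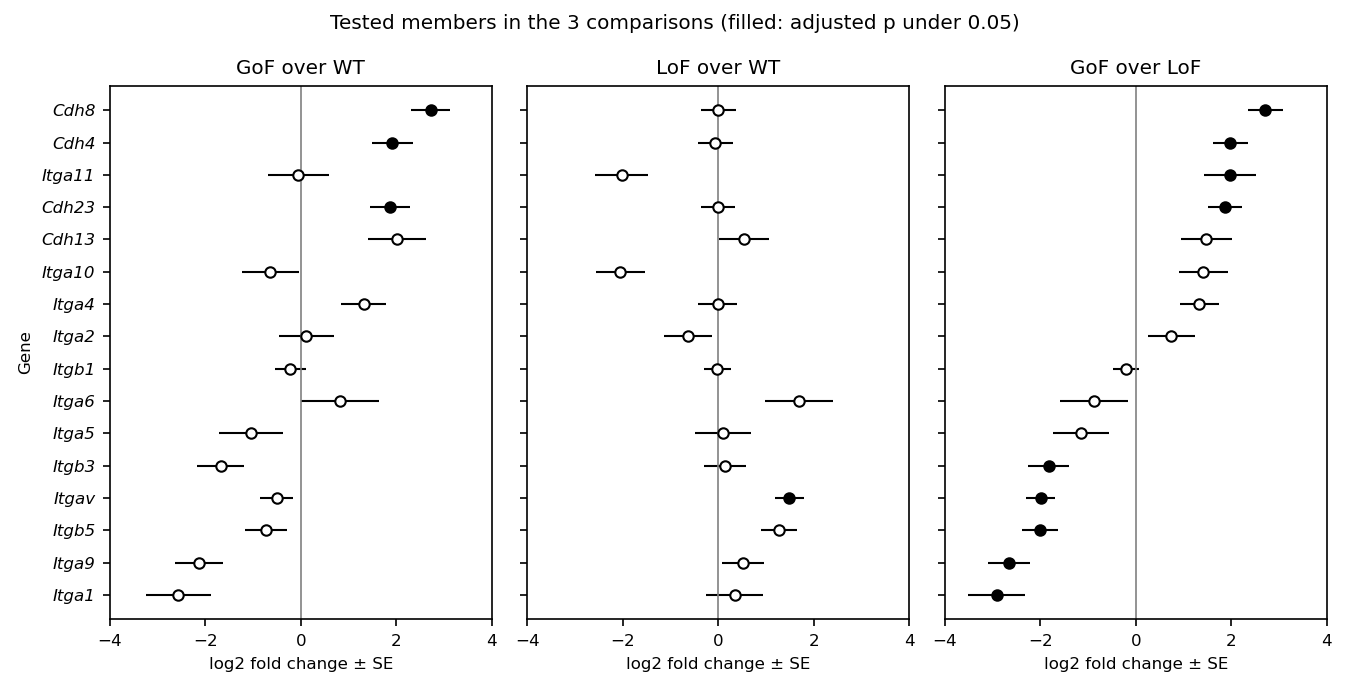
Log2 fold change on the log2(FPKM + 1) scale with its limma standard error for the 16 tested members, in GoF against WT, LoF against WT and GoF against LoF, with filled points at an adjusted p under 0.05. GoF against LoF has 9 filled points, GoF against WT has 3 and LoF against WT has 1, and values for genes listed at 0 in a group depend on the added 1.

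Among subunits that bind the RGD motif (arginine, glycine and aspartate) of fibronectin, vitronectin, osteopontin and bone sialoprotein, Itgav (chromosome 2, 83724397 to 83806916, plus strand) was the most abundant α subunit in every library. It was at 28.5 and 29.3 FPKM in GoF, at 129, 93.9, 131 and 122 in LoF, and at 30.6 and 55.7 in WT. Every LoF library was above every WT library, and both GoF libraries were below both WT libraries. Itgav was 4.12-fold lower in GoF than in LoF by group means (28.9 ± 0.534 FPKM, SD, n = 2, against 119 ± 17.1, n = 4; log2 fold change -1.99 ± 0.30 SE, adjusted p = 0.00264). It was 2.75-fold higher in LoF than in WT (43.2 ± 17.7 FPKM in WT, SD, n = 2), with a log2 fold change of 1.49 ± 0.30 and an adjusted p of 0.0484. That call was kept under 1 of 15 other settings, with an adjusted p between 0.0487 and 0.393. GoF against WT did not pass (log2 fold change -0.50, adjusted p = 0.588). An exon of Gm13684 lies on the opposite strand of Itgav over 634 bases, and the library method does not mark strand.

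Itgb5, the β5 subunit that pairs with αv alone and binds vitronectin (chromosome 16, 33829665 to 33949153, plus strand), followed the same order. Its FPKM was 9.003 and 3.57 in GoF, 26.4, 31.0, 23.4 and 24.8 in LoF, and 11.2 and 9.39 in WT. The 3 groups did not overlap, with GoF lowest and LoF highest. Itgb5 was 4.20-fold lower in GoF (6.29 ± 3.84 FPKM) than in LoF (26.4 ± 3.32), with a log2 fold change of -2.01 ± 0.38 and an adjusted p of 0.0080. That call was kept under 12 of 15 other settings and lost without GoF 2 (adjusted p = 0.069) and with the replicate block (0.0558). LoF was 2.56-fold above WT (10.3 ± 1.29 FPKM), which did not pass (log2 fold change 1.27 ± 0.38, adjusted p = 0.162).

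Itgb3, the β3 subunit of the vitronectin receptor of osteoclasts and of the platelet fibrinogen receptor (chromosome 11, 104608000 to 104670476, plus strand), was at 0.460 and 0.182 FPKM in GoF, at 3.81, 3.40, 4.01 and 3.40 in LoF, and at 4.06 and 2.50 in WT. Its group means had the order of those of Itgav and Itgb5, but here LoF and WT overlapped, and both GoF libraries were below all others. GoF was lower than LoF (log2 fold change -1.82 ± 0.43, adjusted p = 0.0233) and did not pass against WT (-1.68 ± 0.50, adjusted p = 0.13). The call against LoF was kept under 10 of 15 other settings and lost without GoF 1 (adjusted p = 0.0962), without GoF 2 (0.13), with sex as a covariate (0.0633) and with the replicate block (0.0867). Since osteoclasts and megakaryocytes also carry Itgb3, their markers stand beside it. Of 10 osteoclast markers, Calcr, Dcstamp and Ocstamp were at 0 in all 8 libraries, and the summed level of the list was 104.5 to 108.4 FPKM in GoF, 3809 to 5979 in LoF and 2469 to 3242 in WT. Mmp9, a matrix protease, was 3.28 and 2.56 FPKM in GoF and made up most of the sum elsewhere. Other genes of the list did not share that order. Acp5, the acid phosphatase, was 22.3 and 17.6 FPKM in GoF, 6.99, 5.09, 1.08 and 3.54 in LoF, and 3.23 and 5.30 in WT, and was higher in GoF than in LoF (adjusted p = 0.0319). Ctsk, cathepsin K, was 76.5 and 77.8 in GoF, 53.0 to 69.5 in LoF, and 69.2 and 58.5 in WT, and Nfatc1 was 6.26 and 5.38 in GoF, 0.228 to 2.35 in LoF, and 2.43 and 1.61 in WT, neither passing. Of the megakaryocyte markers, Gp5, Gp6, Gp9 and Ppbp were at 0 everywhere, as was Itga2b, the partner of β3 in platelets. The sum of that list was 3.80 to 14.2 FPKM in GoF, at most 15.3 in LoF and 5.08 to 6.08 in WT. The part of such cells in the Itgb3 values was not tested.

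Itgb1, the β1 subunit shared by most matrix-binding integrins (chromosome 8, 128685654 to 128733200, plus strand), was 82.9 and 98.0 FPKM in GoF, 76.6, 103, 129 and 115 in LoF, and 120.0 and 92.6 in WT. The 3 groups overlapped. Its log2 fold change was -0.21 ± 0.28 in GoF against LoF (adjusted p = 0.693), -0.22 ± 0.32 in GoF against WT (0.831) and -0.02 ± 0.28 in LoF against WT (0.995). Itga5, the α5 subunit of the fibronectin receptor, was 1.96 to 2.32 FPKM in GoF, 3.93 to 8.77 in LoF and 2.24 to 12.0 in WT, the last range being 2 libraries, and passed no comparison.

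**Figure D3:**
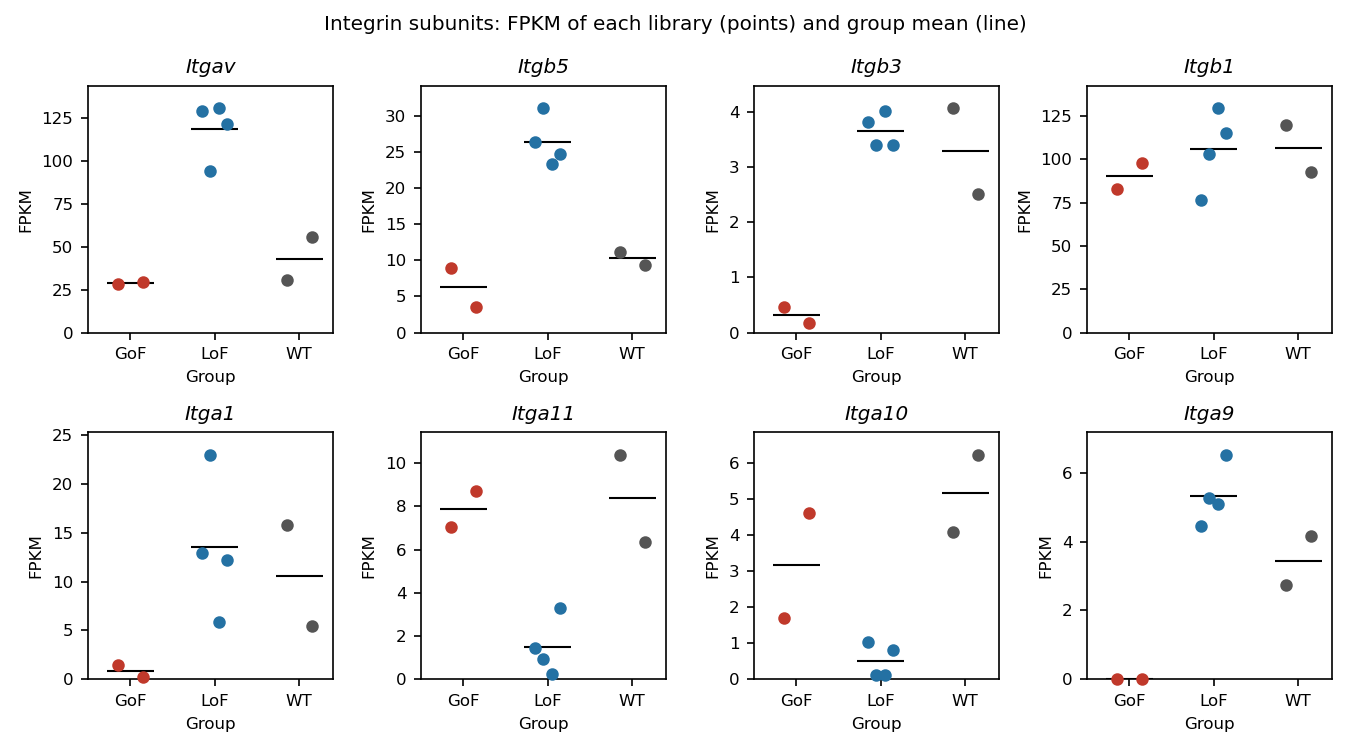
FPKM of Itgav, Itgb5, Itgb3, Itgb1, Itga1, Itga11, Itga10 and Itga9 in each library (points) with the group mean (line), for GoF, LoF and WT from left to right. Itgav and Itgb5 are highest in all 4 LoF libraries, Itga10 and Itga11 are lowest there, and Itgb1 overlaps between the groups.

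The 4 collagen-binding α subunits, which share an inserted domain that holds the collagen helix, were all tested, and in GoF against LoF Itga1 was lower and Itga11 higher. Itga1, the receptor with a preference for collagen IV of basement membranes (chromosome 13, 114958079 to 115101964, minus strand), was at 1.44 and 0.263 FPKM in GoF, at 12.9, 23.0, 5.86 and 12.3 in LoF, and at 15.8 and 5.44 in WT. Both GoF libraries were below all 6 others, and LoF and WT overlapped. GoF was 15.8-fold lower than LoF by group means (0.854 ± 0.835 FPKM against 13.5 ± 7.07; log2 fold change -2.91 ± 0.60, adjusted p = 0.0117). The call was kept under 11 of 15 other settings and lost without GoF 1 (adjusted p = 0.0809), without GoF 2 (0.159) and with sex as a covariate (0.051). Against WT it was 12.4-fold lower (10.6 ± 7.30 FPKM in WT) and did not pass (log2 fold change -2.56 ± 0.69, adjusted p = 0.0937). Gm49395 shares 685 exon bases with Itga1 on the same strand, so the assignment of reads between them is uncertain.

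Itga11, a receptor for fibrillar collagen I in mesenchymal cells (chromosome 9, 62677826 to 62783982, plus strand), was 7.04 and 8.71 FPKM in GoF, 1.44, 0.946, 0.254 and 3.28 in LoF, and 10.4 and 6.37 in WT. All LoF libraries were below all others, and GoF and WT overlapped. GoF was 5.31-fold higher than LoF (7.87 ± 1.18 FPKM against 1.48 ± 1.30; log2 fold change 1.97 ± 0.55, adjusted p = 0.0439), a call kept under 5 of 15 other settings. In LoF against WT Itga11 was 5.65-fold lower and did not pass (log2 fold change -2.03 ± 0.55, adjusted p = 0.122; 8.37 ± 2.84 FPKM in WT).

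Itga10, the collagen II receptor typical of chondrocytes (chromosome 3, 96645584 to 96664519, plus strand), was 1.69 and 4.61 FPKM in GoF, 1.02, 0.104, 0.125 and 0.809 in LoF, and 4.09 and 6.22 in WT. LoF did not overlap with either of the other groups. Neither GoF against LoF (log2 fold change 1.41 ± 0.51, adjusted p = 0.114) nor LoF against WT (-2.05 ± 0.51, adjusted p = 0.0978) passed. Gm42957 shares 1739 exon bases with it on the same strand. Itga2, a collagen I receptor best known from platelets and epithelia, was 1.27 to 1.45 FPKM in GoF, at most 1.54 in LoF and 0.729 to 1.75 in WT, and was not called.

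As a share of the summed FPKM of these 4 subunits, Itga1 was 12.4% and 1.77% in GoF, 81.1%, 95.6%, 93.9% and 68.5% in LoF, and 49.3% and 29.0% in WT. The 3 groups did not overlap in this share, which was lowest in GoF and highest in LoF. Itga10 and Itga11 together made up 19.8% and 24.6% of all α subunit FPKM in GoF, 1.56%, 0.784%, 0.245% and 2.55% in LoF, and 18.5% and 15.2% in WT. LoF stood apart from both other groups in this share.

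**Figure D4:**
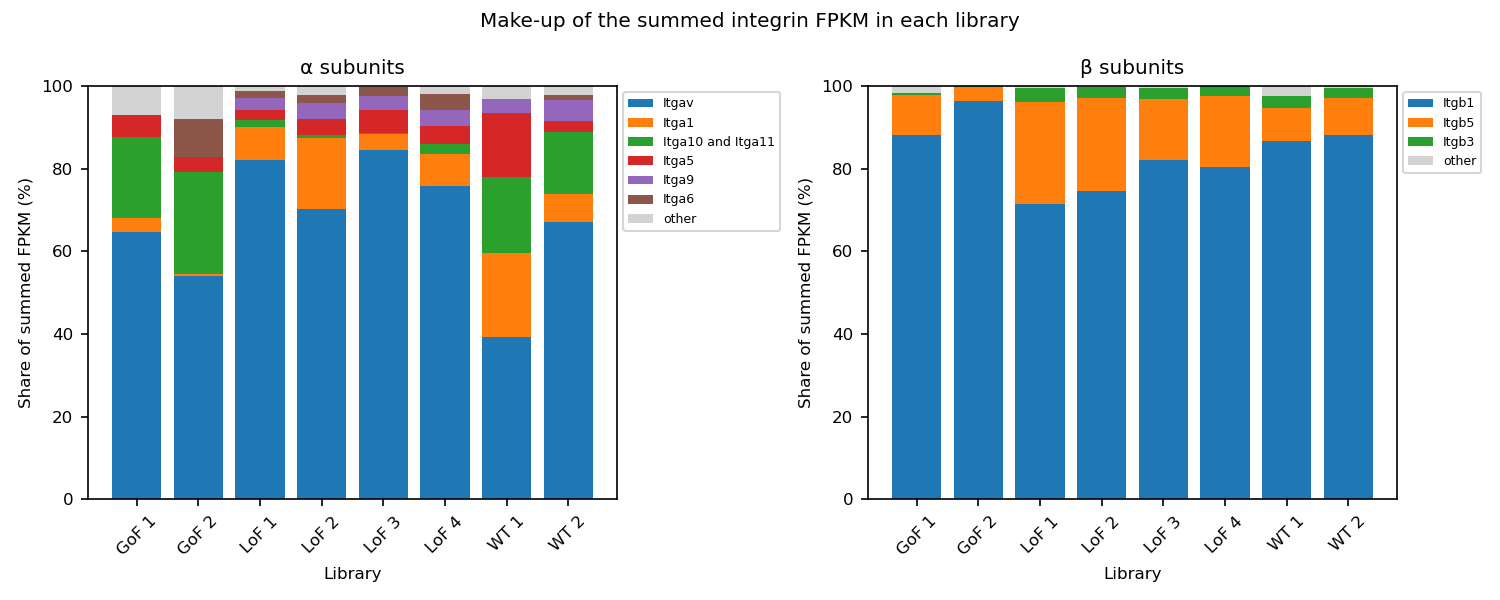
Stacked bars of the percent of summed α subunit FPKM (left) and of summed β subunit FPKM (right) taken by each subunit in each library, for GoF, LoF and WT from left to right. Itga10 with Itga11 takes 15.2% to 24.6% of α subunit FPKM in GoF and WT and at most 2.55% in LoF, where Itgb5 takes 14.8% to 24.6% of β subunit FPKM.

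Over all members, α subunits summed to 44.1 and 54.2 FPKM in GoF, to 157.5, 134, 155 and 161 in LoF, and to 78.0 and 82.8 in WT. The ratio of α to β subunit FPKM was 0.469 and 0.532 in GoF, 1.47, 0.970, 0.981 and 1.12 in LoF, and 0.564 and 0.789 in WT. The groups did not overlap in this ratio, lowest in GoF and highest in LoF. Itgav alone made up 64.7% and 54.0% of α subunit FPKM in GoF. It made up 82.0%, 70.2%, 84.5% and 75.8% in LoF, and 39.3% and 67.2% in WT. The α sum and the ratio therefore largely restate the Itgav values. Itgav is also in the denominator of the share of Itga10 and Itga11. Itgb5 took 9.58% and 3.51% of β subunit FPKM in GoF, 24.6%, 22.5%, 14.8% and 17.3% in LoF, and 8.10% and 8.95% in WT.

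Of the α4 and α9 subunits, which bind VCAM-1, osteopontin and other non-collagen ligands, Itga9 (chromosome 9, 118606690 to 118901003, plus strand) was listed at 0 in both GoF libraries. It was 4.47, 5.26, 5.11 and 6.53 FPKM in LoF and 2.74 and 4.16 in WT. All LoF libraries were above both WT libraries. GoF was lower than LoF (adjusted p = 0.00382) and did not pass against WT (adjusted p = 0.0585), and no fold is given against a group at 0. Itga4, the α4 subunit of leukocyte and progenitor cells, was 1.27 and 2.97 FPKM in GoF, at most 0.407 in LoF, and 0.0603 and 0.364 in WT. GoF stood above all other libraries and did not pass against LoF (log2 fold change 1.33 ± 0.41, adjusted p = 0.0646) or WT (1.32 ± 0.47, adjusted p = 0.222). An exon of Cerkl overlaps Itga4 on the opposite strand over 1124 bases.

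Of the laminin-binding α subunits, Itga6 (chromosome 2, 71745616 to 71858416, plus strand) was tested and not called. It was 0 and 4.99 FPKM in GoF, 2.57, 2.48, 3.62 and 6.22 in LoF, and 0 and 0.937 in WT. Itga3 and Itga7 were above 0 with a highest value of 0.370 and 0.883 FPKM and were under the filter. Itga8, the α8 subunit of mesenchyme, reached 2.01, Itgb8, an αv partner that activates TGF-β, reached 3.13, Itgb6, its epithelial relative, reached 1.58, and Itgb4, the hemidesmosome subunit, reached 0.104 FPKM in any library. None of these 4 met the filter.

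Integrins of leukocytes were at or near 0. Itgb2, Itgb7, Itgad, Itgae, Itgax and both Itgam rows were at 0 in every library, and Itgal reached 0.474 FPKM. Of 20 myeloid and macrophage markers 11 were tested, and the summed level of the list was 24.8 to 30.8 FPKM in GoF, 48.5 to 176 in LoF and 116 to 289 in WT. S100a8 was at 0 in GoF and at 166 and 30.3 FPKM in WT, and S100a9 at 0 in GoF and at 71.8 and 20.5 in WT. Not all of the list shared that order. Mean Laptm5 was 12.3 FPKM in GoF, 15.9 in LoF and 9.68 in WT, and mean Cd68 was 3.10, 2.42 and 0.821. Of 8 lymphoid markers, B-cell genes were present in LoF 2 (Cd79b at 11.4, Ms4a1 at 5.29 and Cd79a at 4.62 FPKM), where Itgb7 was at 0. The sum of that list was at most 1.25 FPKM in GoF, at most 25.6 in LoF and 1.24 to 4.30 in WT. Without LoF 2, GoF against LoF called 3 members higher and 5 lower.

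Cadherins of the member list were higher in sum in GoF than in LoF and WT. Their summed FPKM was 19.2 and 13.3 in GoF, 2.28, 3.47, 5.28 and 2.05 in LoF, and 0.234 and 0.561 in WT, so the groups did not overlap. In GoF, Cdh8, Cdh4, Cdh23 and Cdh13 made up most of the sum, which largely restates their values. Cdh5 alone was 4.32 FPKM in LoF 3, and Cdh17 alone was 2.63 FPKM in LoF 2. Nothing further is read from the sum. That 3 of the 4 tested cadherins reached the filter through GoF alone fixes their direction. Cdh13 also needed the GoF libraries to meet the filter, since outside GoF it reached an FPKM of 1 in LoF 4 alone.

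Cdh8, a type II classical cadherin best known from neurons (chromosome 8, 99024471 to 99416471, minus strand), was 5.51 and 5.65 FPKM in GoF and listed at 0 in all 4 LoF and both WT libraries. It was called against LoF (adjusted p = 0.00121) and against WT (adjusted p = 0.00921). Cdh23, the long atypical cadherin of the tip links of hair cells (chromosome 10, 60302748 to 60696490, minus strand), was 3.42 and 2.04 FPKM in GoF and at 0 in the other 6. It was called against LoF (adjusted p = 0.00845) and against WT (adjusted p = 0.0477). Both were above 0 in the GoF libraries and in no other. An exon of Gm15679 overlaps Cdh8 on the opposite strand over 23 bases.

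Cdh4, the type I classical cadherin R-cadherin of retina, brain and kidney (chromosome 2, 179442431 to 179899373, plus strand), was 3.96 and 2.14 FPKM in GoF, at 0 in all 4 LoF libraries, and 0 and 0.0941 in WT. It was called against LoF (adjusted p = 0.00735) and against WT (log2 fold change 1.91 ± 0.43, adjusted p = 0.0499). Cdh13, a cadherin held by a lipid anchor and lacking the β-catenin-binding tail (chromosome 8, 118283733 to 119324921, plus strand), was 4.63 and 1.91 FPKM in GoF, 0.613, 0, 0 and 1.75 in LoF, and 0 in both WT libraries. Both GoF libraries were above every other library, and it passed neither comparison (adjusted p = 0.108 against LoF and 0.136 against WT).

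**Figure D5:**
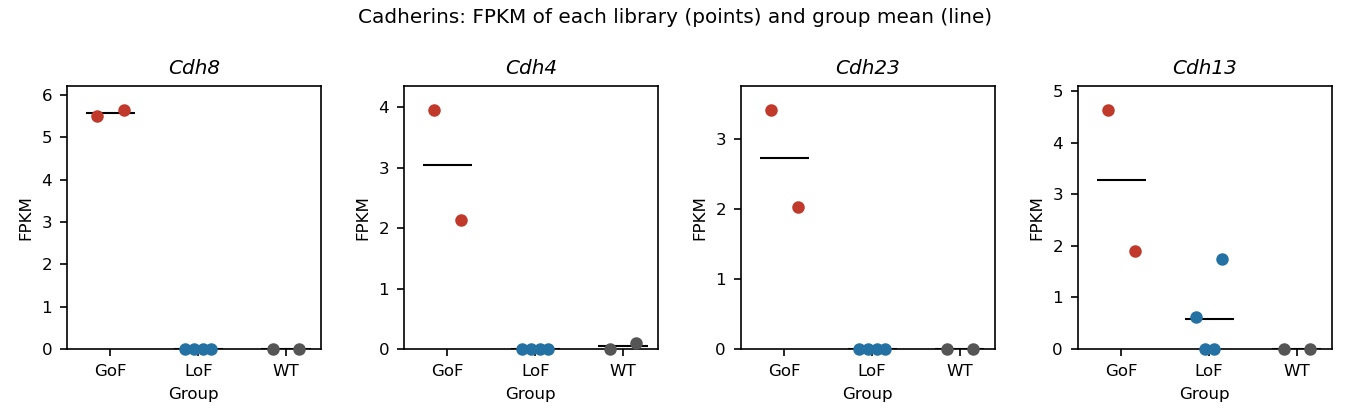
FPKM of Cdh8, Cdh4, Cdh23 and Cdh13 in each library (points) with the group mean (line), for GoF, LoF and WT from left to right. Both GoF libraries lie above every LoF and WT library in each panel, and Cdh8 and Cdh23 are at 0 outside GoF.

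Because these cadherins are made by neural, epithelial and muscle cells, markers of Schwann, epithelial and skeletal muscle cells stand beside them. Neuron markers were not among the lists. Of 8 Schwann cell markers, Sox10, Foxd3 and Erbb3 were at 0 in all libraries, with a summed level of 1.37 to 9.65 FPKM in GoF, 4.80 to 6.84 in LoF and 2.42 to 3.67 in WT. In LoF, S100b alone was 4.80 to 6.57 FPKM. Of 8 epithelial markers, 5 were at 0 in all libraries, and the sum was 0.573 to 11.5 FPKM in GoF, at most 1.28 in LoF and at most 2.45 in WT. Of 8 skeletal muscle markers, 5 were at 0 in all libraries, and the sum was at most 0.183 FPKM in GoF, 0.199 to 4.12 in LoF and at most 0.417 in WT. The part of such cells in the cadherin values was not tested.

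The other 16 cadherin rows were not tested. Of them, 7 were at 0 in every library (Cdh3, Cdh7, Cdh9, Cdh12, Cdh16, Cdh18 and Cdh26). The other 9 were above 0 in at least 1 library, with a highest value between 0.440 FPKM for Cdh22 and 4.32 for Cdh5. Cdh1, the E-cadherin of epithelia, reached 0.483. Cdh5, the VE-cadherin of endothelium, was 0.171 and 0 FPKM in GoF, 4.32 in LoF 3 and 0 in the other LoF and both WT libraries. LoF 3 also held the highest endothelial marker sum, 132.5 FPKM, with Emcn at 38.5, Egfl7 at 34.5, Esam at 10.6, Pecam1 at 9.40 and Tek at 4.32. That sum was 2.46 to 4.35 in GoF, at least 4.72 in LoF and 12.1 to 14.5 in WT. Without LoF 3, GoF against LoF called 3 members higher and 5 lower. Itga1 is also made by pericytes and smooth muscle. Of 10 markers of these, Acta2 and Mcam were lower in GoF than in LoF. The summed level was 5.19 to 5.91 FPKM in GoF, 40.7 to 72.3 in LoF and 32.9 to 39.4 in WT, in the same order of groups as the Itga1 means. Acta2 had the highest mean of the list in LoF (27.4 FPKM) and in WT (16.6). Not all of the list shared that order. Abcc9, Kcnj8 and Cspg4 had their highest mean in WT, Rgs5 was lowest in WT, and Myh11 was at 0 in every library. The part of pericytes and smooth muscle in the Itga1 values was not tested. Of 7 erythroid genes the sum was 895.7 to 1838 FPKM in GoF, 76.0 to 2273 in LoF and 2559 to 10570 in WT.

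Against WT, GoF cells had 3 members called higher, Cdh8, Cdh4 and Cdh23, beside 1.41% of all genes tested, 0 called lower, beside 0.9%, and 13 that did not pass. Since these 3 entered the test through the GoF libraries alone, nothing is read from that count. At an unadjusted p under 0.05, limma gave 8 members, beside 14.3% of all genes. Among them, Cdh8, Cdh4, Cdh23, Itga4 and Cdh13 met the filter only with the GoF libraries. Itga9 was called lower in GoF under 3 of 12 other settings (adjusted p = 0.0147 with a pseudocount of 0.1). With that pseudocount Cdh4 and Cdh23 were not called (0.0894 and 0.067). The groups did not overlap for 10 of 16, against 48.0% of all genes. Those 10 include Cdh8, Cdh4, Cdh23, Itga4 and Cdh13, so nothing is read from that count either. GoF against WT and GoF against LoF share the GoF libraries, so their values for the cadherins are not independent. With sex as a covariate, with a replicate block, with the groups compared alone or without either WT library, the comparison of GoF against WT called 0 members.

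Against WT, LoF cells had 1 member called, Itgav, against 0.566% of all genes tested higher in LoF. None of the members was lower, against 0.667% of all genes, and 5 members had an unadjusted p under 0.05, beside 13.4% of all genes. The 15 others did not pass, and the groups did not overlap for 6 of 16, against 21.4% of all genes. Besides Itgav, these 6 were Itgb5, Itga9 and Itga6, above WT in every LoF library, and Itga10 and Itga11, below WT in every LoF library. Outside LoF, Itga6 reached an FPKM of 1 in GoF 2 alone, so it met the filter only with the LoF libraries. Itga6 is also among the 5 members at an unadjusted p under 0.05.

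The ligands these receptors bind were set beside them, from a list of 34 genes of which 30 were tested. In GoF against LoF, 3 ligands were higher (Ibsp, Col1a1 and Col1a2), 12 were lower and 15 did not pass, beside 5.97% higher and 5.68% lower of all genes. The median log2 fold change was -1.01, with -0.17 over all genes. Vcam1, a ligand of α4 and α9 integrins, fell to 0 and 1.03 FPKM in GoF, against 72.1, 134, 34.5 and 42.2 in LoF (log2 fold change -5.45 ± 0.63, adjusted p = 0.000572). It stood at 14.2 and 3.87 FPKM in WT. Col4a1, a basement membrane collagen, was 4.48 and 0 FPKM in GoF, 27.1, 26.0, 44.2 and 14.6 in LoF, and 13.5 and 5.08 in WT (log2 fold change -3.53 ± 0.69 in GoF against LoF, adjusted p = 0.00934). Both ligands were lowest in GoF, the group lowest for Itga9 and Itga1 and highest for Itga4.

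Col1a1, the main collagen of bone, was 6090.0 and 4626 FPKM in GoF, 821, 244, 325 and 678 in LoF, and 5470.0 and 6681 in WT. It was higher in GoF than in LoF (log2 fold change 3.53 ± 0.44, adjusted p = 0.000886) and lower in LoF than in WT (-3.72 ± 0.44, adjusted p = 0.00657). LoF was the lowest group for Col1a1 as for Itga11. Ibsp, bone sialoprotein, an RGD ligand of αv, was 7467 and 10674 FPKM in GoF, 774, 373, 320 and 823 in LoF, and 5194 and 3564 in WT (log2 fold change 4.09 ± 0.40 in GoF against LoF, adjusted p = 0.000248, and -3.03 ± 0.40 in LoF against WT, adjusted p = 0.0127). Spp1, osteopontin, another RGD ligand, ran the other way, with 1200.0 and 1941 FPKM in GoF, 7823, 11845, 8869 and 10808 in LoF, and 4236 and 3450 in WT. LoF was above WT (log2 fold change 1.34 ± 0.26, adjusted p = 0.0415). Of these αv ligands, Spp1 was highest and Ibsp lowest in the group where Itgav and Itgb5 were highest.

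In GoF against WT, 2 ligands were lower, 0 were higher and 28 did not pass, beside 0.9% lower and 1.41% higher of all genes. Tnc, tenascin-C, a ligand of α9 integrin, was 14.4 and 14.3 FPKM in GoF and 188 and 94.5 in WT (log2 fold change -3.13 ± 0.38, adjusted p = 0.00356). Fbn1, fibrillin-1 of microfibrils, was 0.924 and 1.20 FPKM in GoF and 13.2 and 11.1 in WT (-2.67 ± 0.48, adjusted p = 0.021). In LoF against WT, Spp1 was higher, Col1a1, Ibsp and Col1a2 were lower, and 26 did not pass. Of all genes, 0.566% were higher and 0.667% lower. Vtn, the vitronectin bound by αv with β3 or β5, and Vwf were at 0 in every library.

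Inside the cell, 24 of 31 listed genes of the integrin adhesion machinery were tested. In GoF against LoF, 9 were lower, 0 were higher and 15 did not pass, beside 5.68% lower and 5.97% higher of all genes. The median log2 fold change was -0.80, with -0.17 over all genes. Tln2, a talin that links β tails to actin, was 0.0533 and 0.0422 FPKM in GoF and 5.97 to 8.17 in LoF (log2 fold change -2.94 ± 0.44, adjusted p = 0.00264). Tns3, a tensin of fibrillar adhesions, was 0.461 and 1.13 in GoF and 5.82 to 11.4 in LoF (-2.50 ± 0.45, adjusted p = 0.00649). Tgfb1i1, the paxillin relative Hic-5, was 4.47 and 6.58 in GoF and 17.8 to 46.6 in LoF (-2.24 ± 0.46, adjusted p = 0.0113), the row with the tested gene ID. Flna, the actin crosslinker filamin A, was 18.6 and 28.1 in GoF and 47.2 to 122 in LoF (-1.83 ± 0.42, adjusted p = 0.0206). For each of these 4 genes, both GoF libraries lay below all 4 LoF libraries. In GoF against WT and in LoF against WT, 0 of the 24 were called, beside at most 1.41% of all genes in either direction.

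Of 15 listed cadherin partners, 11 were tested. In GoF against LoF, Nectin3, an adhesion receptor of adherens junctions, was lower, at 3.40 and 3.68 FPKM in GoF and 12.1 to 30.5 in LoF (log2 fold change -2.04 ± 0.44, adjusted p = 0.0152), and 10 did not pass. Over all genes, 5.68% were lower and 5.97% higher in that comparison. The other comparisons called 0 of the 11, beside at most 1.41% of all genes in either direction. Nothing is read from these counts.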

How the data were processed

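Per the labels' protocols, libraries were made by Smart-seq2 from 70 tdTomato-positive cells each. The authors deposited FPKM per gene and library. The submitters' processing notes name HISAT2, SAMtools 0.1.18, Cufflinks, HTSeq and mm10 without role or order, and the annotation release is not given in the sources used here. Of 48555 lines, 65 repeated others with identical values and were dropped. All 37 mitochondrially encoded genes were at 0. Read depth is unknown, so no counting interval was computed.

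Groups came from the labels. Genes reaching an FPKM of 1 in at least 2 libraries were tested with limma 3.58.1 in R 4.3.3 on log2(FPKM + 1), which understates changes of low genes, with all 3 groups in 1 fit and a mean-variance trend (10.1 degrees of freedom in all). The code was tested on simulated data. Members, lists and named genes (members called or reaching a mean of 10 FPKM, and up to 4 called genes per list) were chosen with earlier results of these data known. The motif search was added after the data were seen. Locations are from the deposited table, and exon overlaps from GENCODE M21.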

Additional observations from a re-analysis of the deposited data

Results flagged for a closer look

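In 25 groups of 4 LoF libraries, 1 per member above 0 there, the highest or lowest library was checked for a wide gap to the others, which chance gives in about 1 of 20 groups without ties. It was found for 6 members, each above 0 in 1 LoF library and at 0 in the other 3, so the gap equals the whole range by construction, that rate does not apply, and the count of 6 is no excess. Cdh5 was 4.32 FPKM in LoF 3, the library with the highest endothelial marker sum. Cdh24 was 0.964 FPKM in LoF 3 as well. Cdh17 was 2.63 FPKM and Cdh6 was 0.839 FPKM in LoF 2, the library with B-cell genes. Cdh10 was 0.631 FPKM in LoF 1, and Itgb4 was 0.104 FPKM in LoF 4. None of the 6 reached the filter on low values, so none entered a test.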

How the results depend on the processing

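No called member changed direction under the settings run. In GoF against LoF, 9 members and 1501 genes were called. The replicate block gave 4 and 727. The labels do not say whether libraries of the same number share a batch. Deviations of same-numbered libraries, for replicates 1 and 2, correlated between -0.007 and 0.030. LoF 3 and LoF 4 have no same-numbered library in the other groups, so these values do not decide the question. Sex as a covariate gave 974 genes, libraries with Y-linked transcripts alone 0 members (13 at an unadjusted p under 0.05) and 93 genes, and leaving out each library 5 to 10 members and 429 to 1369 genes. In GoF against WT (3 members, 298 genes), the groups compared alone gave 0 and 0, the replicate block 0 and 15, sex 0 and 11, and leaving out each library 0 to 3 and 39 to 160. In LoF against WT (1 member, 159 genes), members fell to 0 with median ratio scaling. With no filter this comparison gave 0 members and 53 genes, with no trend 0 and 54, with a pseudocount of 0.1 0 and 83, with the replicate block 0 and 1, with sex 0 and 14, and with the groups compared or libraries with Xist alone 0 and 0. Leaving out each library gave 0 members and 4 to 135 genes. With limma, members at an unadjusted p under 0.05 numbered 7 to 9 and 3 to 5 across these settings of the comparisons with WT. Both sex-restricted fits were chosen after seeing the data. Of single member results, 580 kept sign and call, 62 lost and 7 gained a call, and 23, none called, changed sign or went to 0. The causes were not tested. With 2 GoF and 2 WT libraries and no read counts, small differences were not detectable.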
